A study of Homo sapiens with 32 samples.

Results

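Aminoacyl-tRNA synthetases were examined in HCT116 cells, an established human colorectal carcinoma line, with and without endoplasmic reticulum (ER) stress. The 35 genes were taken by name: 19 encode cytosolic enzymes (symbols ending in 1, with the 2 subunit genes FARSA and FARSB) and 16 encode mitochondrial enzymes (symbols ending in 2). For each gene the transcript that gathered the most reads in the 32 libraries was used, and all 35 were found among 18825 named genes. RNA was read by SLAM-seq, in which cells are fed 4-thiouridine (s4U) and RNA made during the feeding is recognised by T-to-C conversions in the reads. The 3 readings given here are all reads of a gene (total reads), its reads that carry conversions (labelled reads) and the fraction that the second make of the first (the labelled share).

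The series was set up to follow RNA after loss of IGF2BP3, an RNA-binding protein, in unstressed and ER-stressed cells. There were 8 groups of 4 wells: stressed cells of the mAID-IGF2BP3 line with auxin or with vehicle, unstressed cells of that line with auxin or with vehicle, and the same 4 conditions in the parental HCT116 tetON OsTIR1 line. In the tagged line both endogenous alleles of IGF2BP3 carried the mAID degron; the titles of replicates 1 and 2 of unstressed tagged cells with vehicle repeat the tag's name, and these were taken as the same line. Stress was 5 µg/mL tunicamycin for 5 h, auxin (IAA) was 500 µM for 9 h, and DMSO was the vehicle. Every well, controls included, also received 200 ng/mL doxycycline for 24 h, which induces OsTIR1, the plant receptor that couples auxin to degradation of the tagged protein, and 250 µM s4U for 2 h. The replicates were wells of 24-well plates, so p-values compare differences with the spread between such wells, and no library without s4U was available to set the conversion background.

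Aminoacyl-tRNA synthetases join each amino acid to its matching tRNA, and so supply translation with charged tRNA. Human cells run separate sets for the cytosol and for the mitochondrion, and both sets are encoded in the nucleus. GARS1 and KARS1 are the exceptions, as each gene makes a cytosolic and a mitochondrial form. ER stress activates the kinase PERK, whose phosphorylation of eIF2α slows general translation and favours synthesis of the transcription factor ATF4. ATF4 is known to activate genes of amino acid import, amino acid synthesis and tRNA charging.

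The letters TGATGCAA are the core of the C/EBP-ATF response element, to which ATF4 binds. They were looked for on both strands in RefSeq promoter windows (GRCh38.p14, 250 bases before to 50 after an annotated start), of which a gene can have more than 1. There were 39 windows for 30 of the 35 genes, 16 cytosolic and 14 mitochondrial. TGATGCAA stood in the windows of 6 cytosolic genes and of 0 mitochondrial genes, against 304 of 35116 windows (0.866%), or 295 of 27305 genes (1.08%), over all genes. With the sixth letter free (TGATGNAA, which includes the first motif), GARS1 and the mitochondrial YARS2 were added, against 1270 windows (3.62%) and 1217 genes (4.46%). The ER stress response element, CCAAT and CCACG set 9 bases apart, stood in 27 windows (0.0769%) and in 0 of those 39. The 30 bases around each match are shown because they hold the letters that distinguish these 8 windows. Each is written 5′ to 3′ on the gene's strand, with the matched letters, or their reverse complement, in capitals.
TARS1 (chr5:33440956-33440985, plus strand): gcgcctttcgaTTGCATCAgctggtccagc
IARS1 (chr9:92293692-92293721, minus strand): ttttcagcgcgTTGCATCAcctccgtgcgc
CARS1 (chr11:3057407-3057436, minus strand): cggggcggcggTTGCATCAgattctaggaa
MARS1 (chr12:57488053-57488082, plus strand): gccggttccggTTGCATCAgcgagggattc
AARS1 (chr16:70289675-70289704, minus strand): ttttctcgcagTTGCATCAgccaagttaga
NARS1 (chr18:57621804-57621833, minus strand): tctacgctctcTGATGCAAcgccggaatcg
GARS1 (chr7:30594834-30594863, plus strand): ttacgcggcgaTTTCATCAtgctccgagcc
YARS2 (chr12:32756076-32756105, minus strand): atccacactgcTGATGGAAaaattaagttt
The first matched base lay 13 bases before the window's start site in IARS1, 4 in MARS1 and 2 in CARS1, and 187 before it in AARS1. A match is a run of letters and not a measured site, and the motif was chosen with results of these data known.

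The libraries held 0.987 M to 6.98 M reads in named genes (M, 1000000), of which 0.0876 M to 0.844 M were labelled. One library stood apart: replicate 1 of stressed parental cells with auxin had 0.987 M reads, 8.88% of them labelled, and 15.1 covered T positions per read, against 2.55 M to 6.98 M reads, 10.3% to 13.4% and 20.3 to 24.1 positions in the other 31. Some of the results that change without it are given both ways, and others with it only. Leaving it aside, labelled reads made up 10.3% to 12.7% of reads in stressed libraries and 11.4% to 13.4% in unstressed ones. Conversions stood at 0.705% to 0.939% of covered T positions in stressed libraries and 0.91% to 1.23% in unstressed ones. Labelled reads were scaled by factors of their own, so their changes are relative to the labelled reads of other genes. The epithelial markers EPCAM, KRT8, KRT18 and CDH1 were detected and VIL1 was at 0 reads in every library. The leukocyte markers PTPRC and CD3E and the fibroblast markers COL3A1 and DCN were at 0 reads, LYZ had at most 1, and COL1A1 had 18.4 to 59.8 CPM (reads per 1000000 reads in named genes). Of these markers COL1A1 (0.44, adjusted p = 0.000227), CDH1 (0.62, adjusted p = 0.00224) and KRT18 (0.20, adjusted p = 0.0282) were higher in stressed cells in total reads (log2, edgeR), and their part in the results was not tested. IGF2BP3 mRNA ranged from 130 to 235 CPM over the 32 libraries; the degron acts on the protein, which was not measured. Cytosolic synthetase genes had median counts of 217 (IARS1) to 1353 (KARS1) reads per library and mitochondrial ones 32 (MARS2) to 236 (CARS2), so changes of the mitochondrial genes were measured with more counting error. In bulk RNA, fewer cells making a transcript and less of it per cell cannot be told apart.

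Under tunicamycin 11 of the 19 cytosolic genes rose, and most mitochondrial genes did not pass the test. Those counts are averaged over the 4 states of line and auxin: in total reads 11 cytosolic genes were higher in stressed cells and 0 were lower, while 0 of 16 mitochondrial genes were higher and 1, MARS2, was lower. Over all 11184 genes tested, 21.9% were called, 11.1% higher and 10.8% lower (edgeR, adjusted p below 0.05). The median log2 fold change was 0.37 over the cytosolic genes and −0.02 over the mitochondrial genes, beside 0.01 over all genes. CARS1 and WARS1 changed the most of the members in total reads, at 1.08 ± 0.10 and 1.06 ± 0.07 (log2 ± SE).

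Labelled reads gave more calls. There 14 cytosolic genes were higher and 1, QARS1, was lower, whereas of the 14 mitochondrial genes that could be tested 1 was higher and 3 were lower; 34.6% of all 8978 genes tested were called, 16.9% higher and 17.6% lower. Medians were 1.00 over the cytosolic genes, −0.01 over the mitochondrial genes and −0.03 over all genes. The change in the labelled share was fitted as the log2 ratio of labelled to other reads, relative to the typical gene. It is therefore not the log2 ratio of the percentages. In the share 12 cytosolic genes were higher and 0 lower, against 1 mitochondrial gene higher and 2 lower, with 28.2% of genes called, 13.5% higher and 14.7% lower. The median share change was 0.65 for the cytosolic genes, −0.10 for the mitochondrial genes and −0.06 for all genes. Without the smallest library the cytosolic genes called higher numbered 12 in total reads, 13 in labelled reads and 13 in the share. The mitochondrial gene called lower in total reads remained 1, and in the share 1 mitochondrial gene was then higher and 1 lower. The shares of all genes called without that library are not given here.

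**Figure D1:**
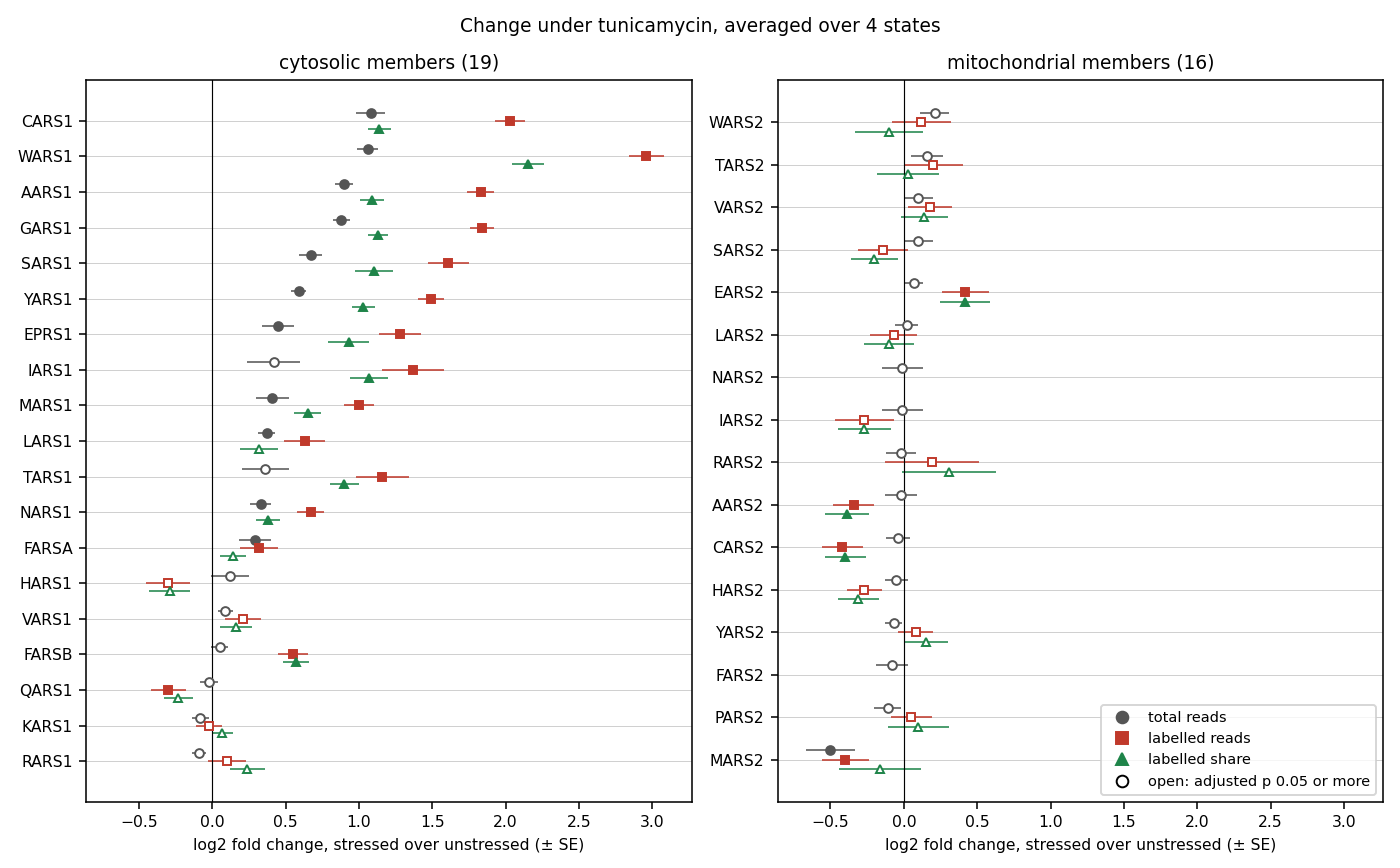
Log2 fold changes of each synthetase gene, stressed against unstressed cells, averaged over the 4 states of line and auxin, with standard errors. Circles are total reads, squares labelled reads and triangles the labelled share; filled symbols passed edgeR's adjusted p of 0.05. Cytosolic genes extend to 2.96 in labelled reads for WARS1, while the mitochondrial genes lie between −0.50 and 0.42 in every reading.

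A group of 6 cytosolic enzyme genes separated stressed from unstressed cells completely: WARS1, AARS1, GARS1, YARS1, CARS1 and SARS1, which charge tryptophan, alanine, glycine, tyrosine, cysteine and serine tRNA. In each, all 16 stressed libraries lay above all 16 unstressed libraries, both in total and in labelled reads, which held for 1.45% and 2.38% of all genes tested and for 0 mitochondrial synthetase genes. WARS1 had 219, 229, 187 and 232 CPM in stressed tagged cells with auxin, against 107, 102, 94.5 and 99.6 CPM in unstressed tagged cells with auxin. In tagged cells with vehicle it had 205, 279, 196 and 275 CPM under stress and 102, 107, 118 and 135 CPM without. Both tagged states thus put every stressed well above every unstressed well.

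Parental cells gave the same order for WARS1. Its level was 358, 254, 241 and 231 CPM in stressed parental cells with auxin, against 106, 121, 95.9 and 111 CPM in unstressed parental cells with auxin. With vehicle, stressed parental cells had 257, 231, 239 and 239 CPM and unstressed parental cells 128, 153, 126 and 154 CPM. The 358 CPM belonged to the smallest library, and the other stressed wells of that group still lay above their unstressed counterparts. The fold change ranged over the 4 states from 0.78 in parental cells with vehicle to 1.31 in parental cells with auxin, with an averaged adjusted p of 3.01e-14.

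CARS1 showed the widest range of the 6. It had 214 to 634 (median 279) CPM in the 16 stressed libraries, against 106 to 208 (median 137) CPM in the 16 unstressed ones, and its highest value again came from the smallest library. AARS1 had 264 to 345 (median 305) CPM under stress, against 128 to 217 (median 157) CPM without (0.90 ± 0.06, adjusted p = 5.02e-14). GARS1, the gene for both glycyl-tRNA synthetase forms, had 287 to 533 (median 316) CPM, against 153 to 199 (median 179) CPM (0.88 ± 0.06, adjusted p = 2.91e-13). All 3 had a median in stressed cells above the highest unstressed value.

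The remaining pair changed less. YARS1 had 305 to 408 (median 346) CPM in stressed libraries, against 188 to 281 (median 237) CPM in unstressed libraries (0.59 ± 0.05, adjusted p = 2.62e-11). SARS1 had 131 to 331 (median 152) CPM, against 78.7 to 121 (median 101) CPM (0.67 ± 0.08, adjusted p = 2.23e-07). Of the 6, all except SARS1 passed the threshold in total reads in each of the 4 states taken singly; SARS1 passed in parental cells with auxin, and without the smallest library in all 4 states.

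**Figure D2:**
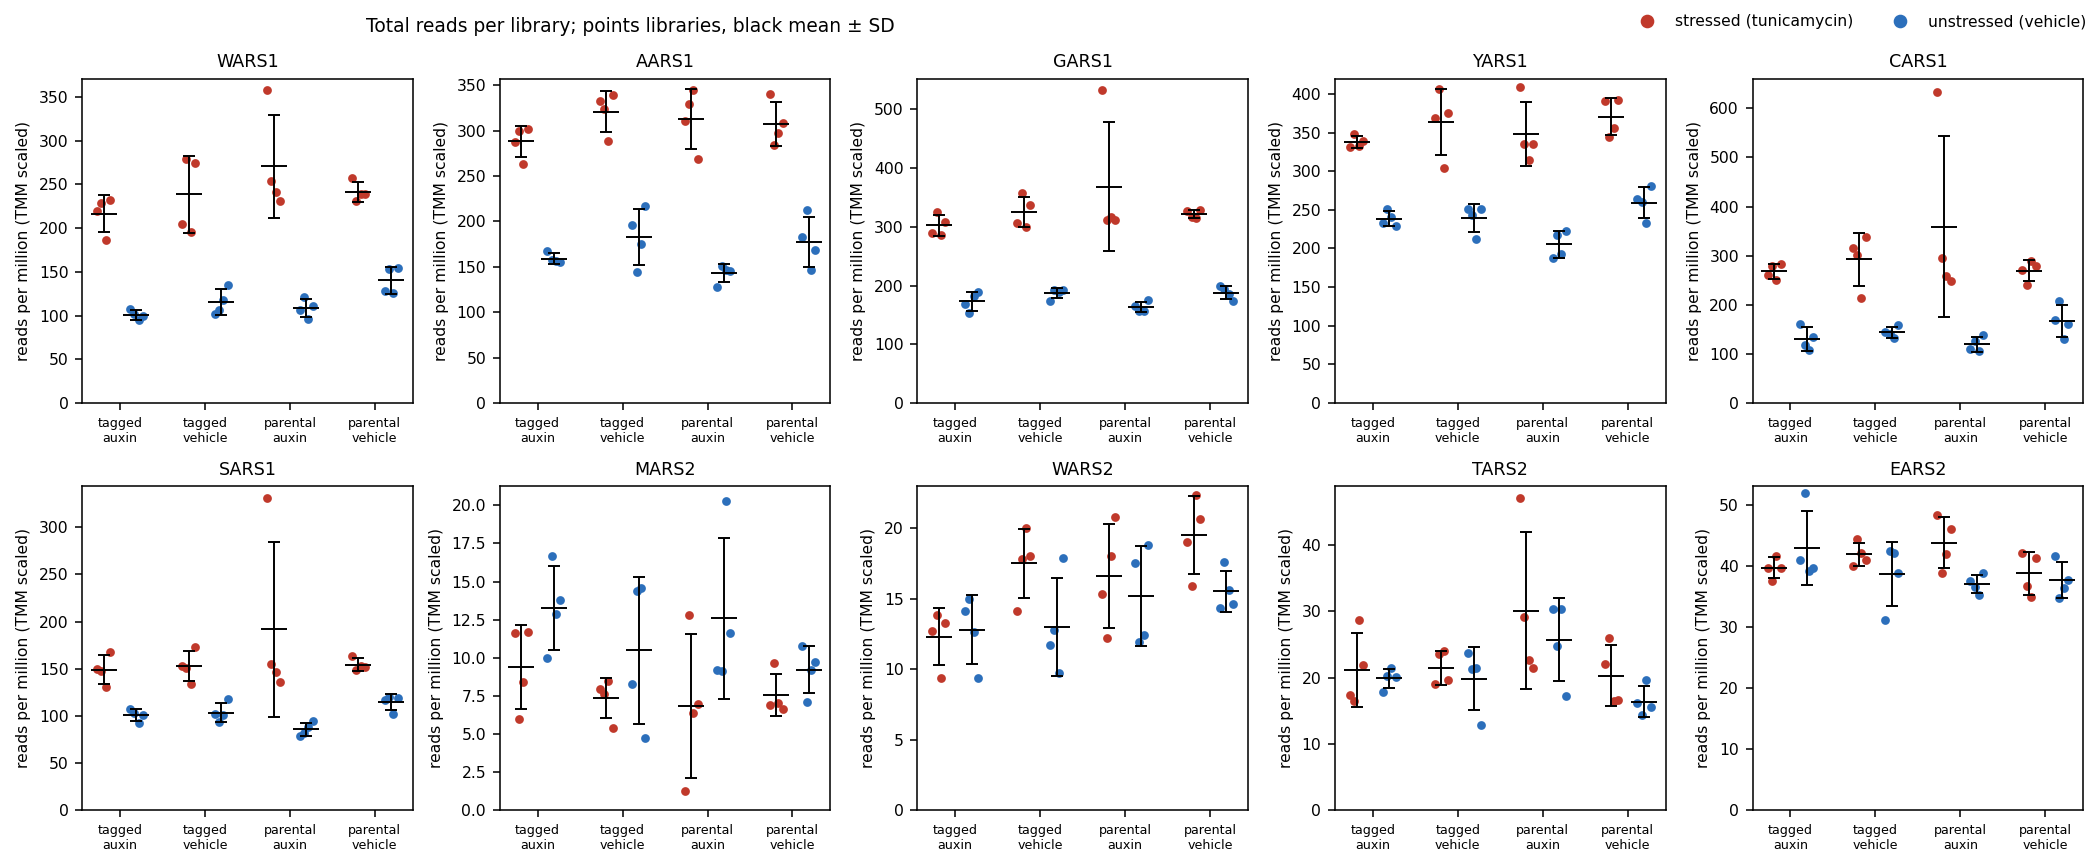
Total reads (CPM) of 10 synthetase genes in each of the 32 libraries, 6 cytosolic and 4 mitochondrial, by line and auxin state, stressed wells in red to the left of unstressed wells in blue; bars are mean ± SD over 4 wells. The 6 cytosolic genes show stressed wells above unstressed wells in every state, and the 4 mitochondrial genes overlap.

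The labelled share of these 6 genes was higher under stress as well. The labelled share of WARS1 reads was 11.7 to 20.6 (median 16.4)% in stressed libraries, against 2.65 to 8.49 (median 5.49)% in unstressed ones, so the lowest stressed library exceeded the highest unstressed library. CARS1 also did not overlap, at 12.2 to 18.5 (median 14.9)% under stress and 5.70 to 11.1 (median 9.28)% without. GARS1 likewise had 12.9 to 17.4 (median 14.9)%, against 7.29 to 12.5 (median 9.07)%. How many of all genes did not overlap in this percentage was not counted. For AARS1, YARS1 and SARS1 the ranges of this percentage overlapped; AARS1 had 7.79 to 20.1 (median 16.5)% in stressed libraries, against 7.66 to 13.5 (median 10.1)% in unstressed libraries. Relative to the typical gene, the ratio of labelled to other reads changed by 2.15 ± 0.11 for WARS1, 1.14 ± 0.08 for CARS1, 1.13 ± 0.07 for GARS1, 1.10 ± 0.13 for SARS1, 1.09 ± 0.08 for AARS1 and 1.03 ± 0.08 for YARS1 (log2). Each had an edgeR adjusted p of 1.8e-12 or less. In labelled reads the 6 genes rose by 1.49 (YARS1) to 2.96 (WARS1), all with 4 of 4 states called.

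**Figure D3:**
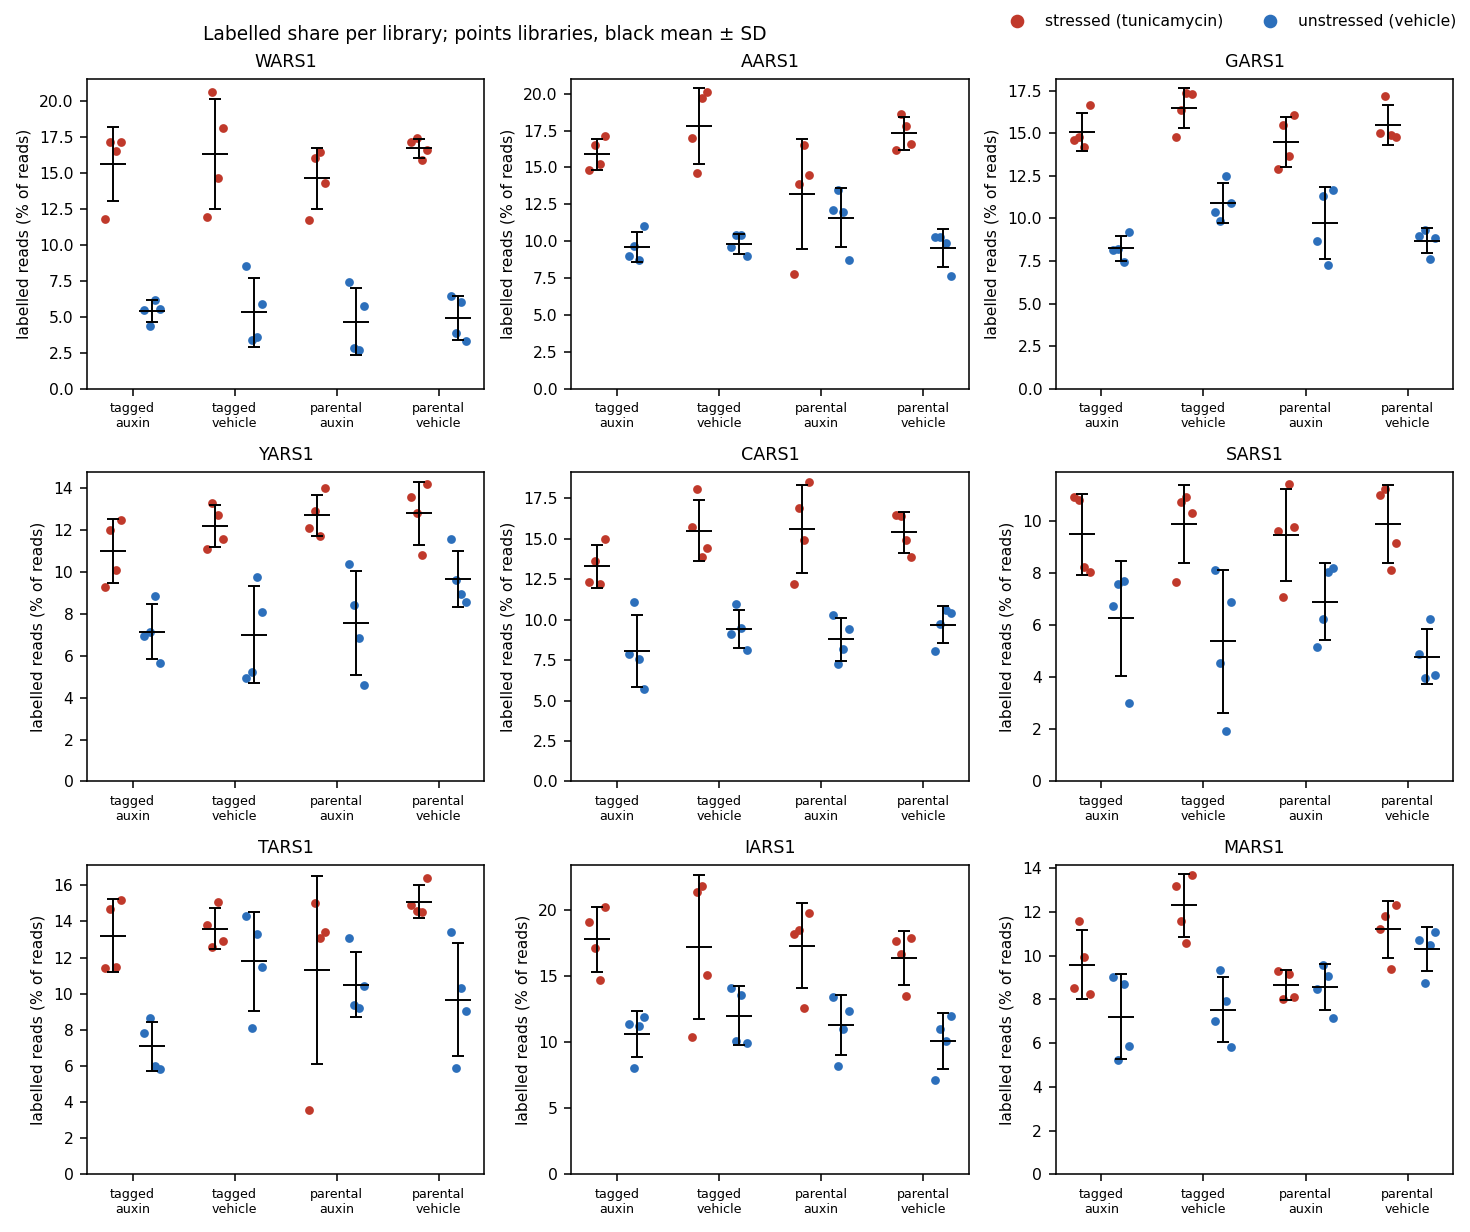
Labelled reads as a percentage of all reads of 9 cytosolic synthetase genes in each library, stressed wells in red to the left of unstressed wells in blue within each line and auxin state; bars are mean ± SD over 4 wells. WARS1 lies at 11.7% to 20.6% in stressed wells and at 2.65% to 8.49% in unstressed wells.

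IARS1 and TARS1, the isoleucyl and threonyl enzymes, differed from that group: averaged over the states they were called in labelled reads and in the share but not in total reads, a pattern shared by FARSB. IARS1 had 46.2, 66.6, 86.2 and 45.9 CPM in stressed tagged cells with vehicle, against 32, 48.4, 42.7 and 31.8 CPM in unstressed tagged cells with vehicle. With auxin the tagged cells had 115, 75.8, 144 and 87.1 CPM under stress and 63.6, 164, 129.7 and 60.0 CPM without. The vehicle wells were nearly separated and the auxin wells overlapped. In parental cells IARS1 had 59.7, 139, 70.2 and 68.1 CPM in stressed and 31.2, 37.8, 49.2 and 34.5 CPM in unstressed wells with vehicle, and 28, 65.7, 61.9 and 118 CPM in stressed and 82.1, 66.2, 118 and 46.8 CPM in unstressed wells with auxin. Its averaged change in total reads was 0.42 ± 0.18 (adjusted p = 0.0912), that in labelled reads 1.37 ± 0.21 (adjusted p = 3.7e-06) and that in the share 1.07 ± 0.13 (adjusted p = 1.46e-11). In parental cells with vehicle alone its total reads passed (1.14 ± 0.35, adjusted p = 0.0328).

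TARS1 followed the same pattern. It had 122, 106, 177 and 104 CPM in stressed and 94.4, 105, 108 and 77.8 CPM in unstressed tagged cells with vehicle, and 197, 158, 282 and 189 CPM in stressed and 140.3, 255, 210.3 and 174 CPM in unstressed tagged cells with auxin. Parental cells with vehicle had 165, 295, 148 and 172 CPM under stress and 64, 85.7, 115 and 83.2 CPM without, with no overlap (1.16 ± 0.32, adjusted p = 0.016). With auxin they had 35.6, 183, 129.6 and 239 CPM under stress, the lowest in the smallest library, and 196, 152, 234 and 117 CPM without. The averaged change was 0.36 ± 0.16 in total reads (adjusted p = 0.11), 1.16 ± 0.18 in labelled reads and 0.90 ± 0.10 in the share (adjusted p = 2.45e-13). Without the smallest library the change in total reads was 0.43 and passed the threshold (adjusted p = 0.0175). The stress effect with auxin minus that without, in tagged cells, was −0.65 ± 0.50 for IARS1 and −0.32 ± 0.45 for TARS1, and neither passed (adjusted p = 1 and 1).

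A library property moved with several of these genes. Covered T positions per read, the T positions of the counted regions that the reads span, were 22.6 to 24.1 in unstressed tagged cells with auxin and 21.6 to 22.1 with vehicle, and 22.5 to 23.3 in unstressed parental cells with auxin and 20.3 to 22.5 with vehicle. In stressed cells, leaving the smallest library aside, they were 22.6 to 22.9 in tagged cells with auxin and 21.3 to 22.5 with vehicle, and 22.6 to 22.9 in parental cells with auxin and 21.9 to 23.3 with vehicle. Across the 31 libraries other than the smallest, deviations of a gene's level from its group mean correlated with those of T positions per read at r = 0.86 for EPRS1, 0.79 for IARS2, 0.76 for TARS1 and 0.61 for IARS1, and at −0.81 for QARS1 and −0.72 for CARS1 and VARS1. The middle 90% of all genes ran from −0.69 to 0.71. These are descriptions of libraries that share their wells' RNA and depth. With T positions per read as a covariate, 13 cytosolic genes were higher in total reads averaged over the states, IARS1 (0.44, adjusted p = 0.0272) and TARS1 (0.38, adjusted p = 0.00214) among them. Over all genes 1773 were higher in that fit, against 1240 in the main fit. In parental cells with vehicle alone, IARS1 was then not called in total reads. TARS1 was not called there either when the smallest library was also left out. What part the property has in the results was not tested beyond these fits.

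**Figure D4:**
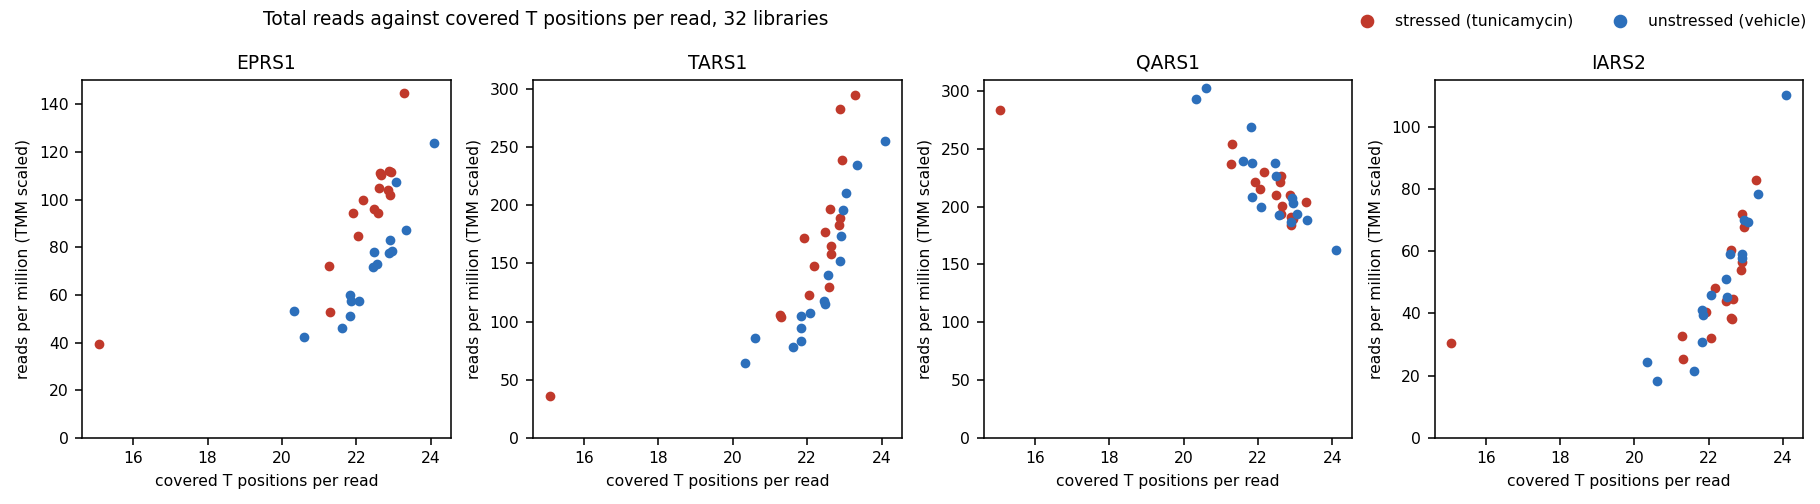
Total reads (CPM) of EPRS1, TARS1, QARS1 and IARS2 against covered T positions per read in the 32 libraries, with stressed libraries in red and unstressed in blue. Levels of EPRS1, TARS1 and IARS2 climb and those of QARS1 decline with T positions per read, and 1 library lies apart at 15.1.

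Among the other cytosolic enzymes, EPRS1, MARS1 and NARS1 rose in all 3 readings. EPRS1, the joint glutamyl and prolyl enzyme, had 39.4 to 145 (median 101) CPM in stressed libraries, against 42.5 to 124 (median 72.2) CPM in unstressed ones (0.45 ± 0.11, adjusted p = 0.00164; labelled 1.28). MARS1, the methionyl enzyme, had 54.7 to 255 (median 235) CPM, against 115 to 196 (median 173) CPM (0.41 ± 0.11, adjusted p = 0.00564; labelled 1.00), and its lowest stressed value came from the smallest library. The ranges of both genes overlapped. MARS1 (chr12:57488068-57516652) shares its last 65 bases with DDIT3 (chr12:57516588-57520517), which was 5.22 higher on the log2 scale; the counted MARS1 region was 74 bases long, and without the strand of counting, which the sources used here do not give, reads of the 2 genes in the overlap cannot be told apart. NARS1, the asparaginyl enzyme, had 116 to 261 (median 241) CPM in stressed libraries, against 168 to 199.5 (median 184) CPM in unstressed libraries (0.33 ± 0.07, adjusted p = 0.000253), counted on a predicted transcript.

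LARS1, the leucyl enzyme, and FARSA, the α subunit of the phenylalanyl enzyme, were higher in total and labelled reads but did not pass in the share. LARS1 had 73.6 to 109.6 (median 97.8) CPM under stress, against 60.4 to 90.9 (median 73) CPM without (0.37 ± 0.06, adjusted p = 1.01e-05). FARSA had 173 to 641 (median 259) CPM, against 163 to 298 (median 222) CPM, and its call in total reads (0.29 ± 0.11, adjusted p = 0.0496) was lost in 22 of 39 alternative fits, each of which left out a single library (adjusted p up to 0.0791). Its call in labelled reads was lost in 26 of 40, among them DESeq2 (adjusted p = 0.0551), the replicate block (adjusted p = 0.0546) and scaling by the factors of total reads (0.07, adjusted p = 0.631). FARSB, the β subunit, was called in labelled reads (0.55 ± 0.10, adjusted p = 9.91e-06) and in the share (0.57 ± 0.09) with nearly equal total levels, a median of 209.7 CPM in stressed and 209.9 CPM in unstressed libraries. Both subunit genes were thus called in labelled reads, FARSA alone in total reads and FARSB alone in the share, and the difference between them was not tested.

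HARS1, KARS1, RARS1 and VARS1, which charge histidine, lysine, arginine and valine tRNA, passed in no reading. Their changes in total reads were 0.12, −0.08, −0.09 and 0.09. The HARS1 value includes 496.1 CPM in the smallest library, against 125.4 to 130.5 CPM in the other wells of that group. Its median was 132.4 CPM in stressed and 136.3 CPM in unstressed libraries. KARS1, the other gene with 2 products, had 186 to 416 (median 373) CPM in stressed libraries, against 304 to 450.1 (median 389) CPM in unstressed libraries, while GARS1 did not overlap. QARS1, the glutaminyl enzyme, was lower in labelled reads (−0.30 ± 0.12, adjusted p = 0.0337), with 2.24 to 6.65 (median 4.36)% of reads labelled under stress and 3.84 to 9.72 (median 6.56)% without; its total level changed by −0.02 (adjusted p = 0.818). The call for QARS1 was lost in 12 of 40 alternatives, 11 of which left out 1 library.

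Known groupings of the cytosolic enzymes were counted next, beside 11.1% of all genes higher in total reads, and 16.9% higher and 17.6% lower in labelled reads. The 2 structural classes of synthetase gave 5 of 9 (class I) and 5 of 9 (class II) higher in total reads and 6 of 9 and 7 of 9 in labelled reads, with EPRS1 in both classes and left out. Of the 7 enzymes held in the multisynthetase complex, 3 were higher in total reads (EPRS1, LARS1 and MARS1), and 4 higher and 1 lower in labelled reads. Its scaffold genes AIMP1, AIMP2 and EEF1E1 were not called in total reads, but AIMP2 (0.54 ± 0.13, adjusted p = 0.000609) and EEF1E1 (0.35 ± 0.10, adjusted p = 0.00309) were higher in labelled reads. All 6 genes with TGATGCAA in a promoter window were higher in labelled reads, as were 6 of the 10 cytosolic genes whose windows lacked it, WARS1 among them, and 1 of 12 mitochondrial genes tested, beside 16.9% of all genes.

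Changes of the mitochondrial enzymes were small. MARS2, the mitochondrial methionyl enzyme, was the single mitochondrial gene called in total reads (−0.50 ± 0.17, adjusted p = 0.0271). It had 11.6, 6.02, 8.39 and 11.7 CPM in stressed and 9.97, 16.7, 12.9 and 13.8 CPM in unstressed tagged cells with auxin, and 7.93, 7.61, 8.49 and 5.43 CPM in stressed and 8.28, 14.4, 14.6 and 4.73 CPM in unstressed tagged cells with vehicle. In parental cells it had 1.27, 12.8, 6.38 and 7.01 CPM in stressed and 9.22, 9.16, 20.3 and 11.6 CPM in unstressed wells with auxin, and 6.89, 9.65, 7.04 and 6.66 CPM in stressed and 10.8, 7.14, 9.23 and 9.73 CPM in unstressed wells with vehicle. The ranges overlapped in all 4 states. MARS2 was the member with the fewest reads, 1138 over all libraries, and its call was lost without any of 5 libraries: unstressed parental cells with auxin replicate 3, unstressed tagged cells with vehicle replicates 2 and 3, unstressed tagged cells with auxin replicate 2 and stressed tagged cells with vehicle replicate 4 (adjusted p up to 0.0664).

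The next mitochondrial genes by p did not pass in total reads. WARS2, for tryptophan, had 9.36 to 22.3 (median 16.8) CPM in stressed libraries, against 9.36 to 18.8 (median 14.2) CPM in unstressed libraries (0.21 ± 0.10, adjusted p = 0.161). TARS2, for threonine, had 16.5 to 47.1 (median 22) CPM, against 12.9 to 30.4 (median 20.2) CPM (0.16 ± 0.11, adjusted p = 0.343). EARS2, which charges glutamate and supplies the amidation route to glutaminyl-tRNA, had 35 to 48.3 (median 41.1) CPM, against 31.2 to 52 (median 38.8) CPM (0.07 ± 0.06, adjusted p = 0.46). All 3 overlapped between stressed and unstressed cells, and the changes of the 15 mitochondrial genes not called ranged from −0.11 (PARS2) to 0.21 (WARS2).

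In labelled reads CARS2, the mitochondrial cysteinyl enzyme, was lower (−0.42 ± 0.14, adjusted p = 0.018), and its labelled share was 4.40 to 18.8 (median 8.94)% in stressed libraries, against 10.0 to 19.4 (median 15.8)% in unstressed libraries. That call in labelled reads held in all 40 alternatives, and the one in the share (−0.40 ± 0.14, adjusted p = 0.0243) in 35 of 38; it was lost with conversions per T position and without unstressed parental cells with auxin replicate 1 or stressed parental cells with auxin replicate 2. AARS2 (alanine) was lower in labelled reads (−0.34 ± 0.14, adjusted p = 0.0492) and the share (−0.39 ± 0.15, adjusted p = 0.0443), MARS2 lower in labelled reads (−0.40 ± 0.16, adjusted p = 0.0488), and EARS2 higher in labelled reads (0.42 ± 0.16, adjusted p = 0.036) and the share (0.42 ± 0.17, adjusted p = 0.0486). These lay close to the threshold: the labelled calls were lost in 21 of 40 alternatives for AARS2, 20 for MARS2 and 13 for EARS2, most of which left out 1 library. The share calls were lost in 22 of 38 alternatives for AARS2, with conversions per T position among them (−0.20, adjusted p = 0.241), and in 24 for EARS2, among them no centring (0.12, adjusted p = 0.556) and conversions per T position (0.24, adjusted p = 0.307). NARS2 and FARS2 had too few labelled reads to be tested.

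Paired by amino acid, the cytosolic gene had a higher log2 fold change than its mitochondrial partner in 11 of 13 pairs in total reads, 10 of 12 in labelled reads and 11 of 12 in the share. For cysteine, CARS1 changed by 2.03 and CARS2 by −0.42 in labelled reads. For tryptophan, WARS1 changed by 2.96 and WARS2 by 0.12. The arginine pair was the reverse in all 3 readings, with RARS1 at −0.09 and RARS2 at −0.02 in total reads, the valine pair in total reads (0.09 and 0.10) and the histidine pair in labelled reads (−0.30 and −0.27). Averaged over the states, none of these 6 genes passed in any reading, and the differences within pairs were not tested. In total reads the histidine pair (0.12 and −0.05) was among the 11, with HARS1 at 496.1 CPM in the smallest library. HARS1 and HARS2 have annotated starts 84 bases apart on opposite strands.

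Summed over genes, the cytosolic set came to 3813 to 4956 CPM in stressed libraries, against 2795 to 3374 CPM in unstressed libraries. The mitochondrial set came to 474 to 702 CPM, against 498 to 605 CPM. The first sum did not overlap and the second did. Labelled cytosolic reads summed to 3767 to 4461 CPM of labelled reads under stress, against 1675 to 2100 CPM without, and labelled mitochondrial reads to 598 to 848 CPM, against 691 to 926 CPM. Averaged over the 4 states the cytosolic sum changed by 0.40 (log2) in total reads and 1.10 in labelled reads, and the mitochondrial sum by −0.08 in labelled reads. The highest total of each set, 4956 and 702 CPM, belonged to the smallest library; the averaged change of the cytosolic sum stayed between 0.38 and 0.42 with any single library left out.

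**Figure D5:**
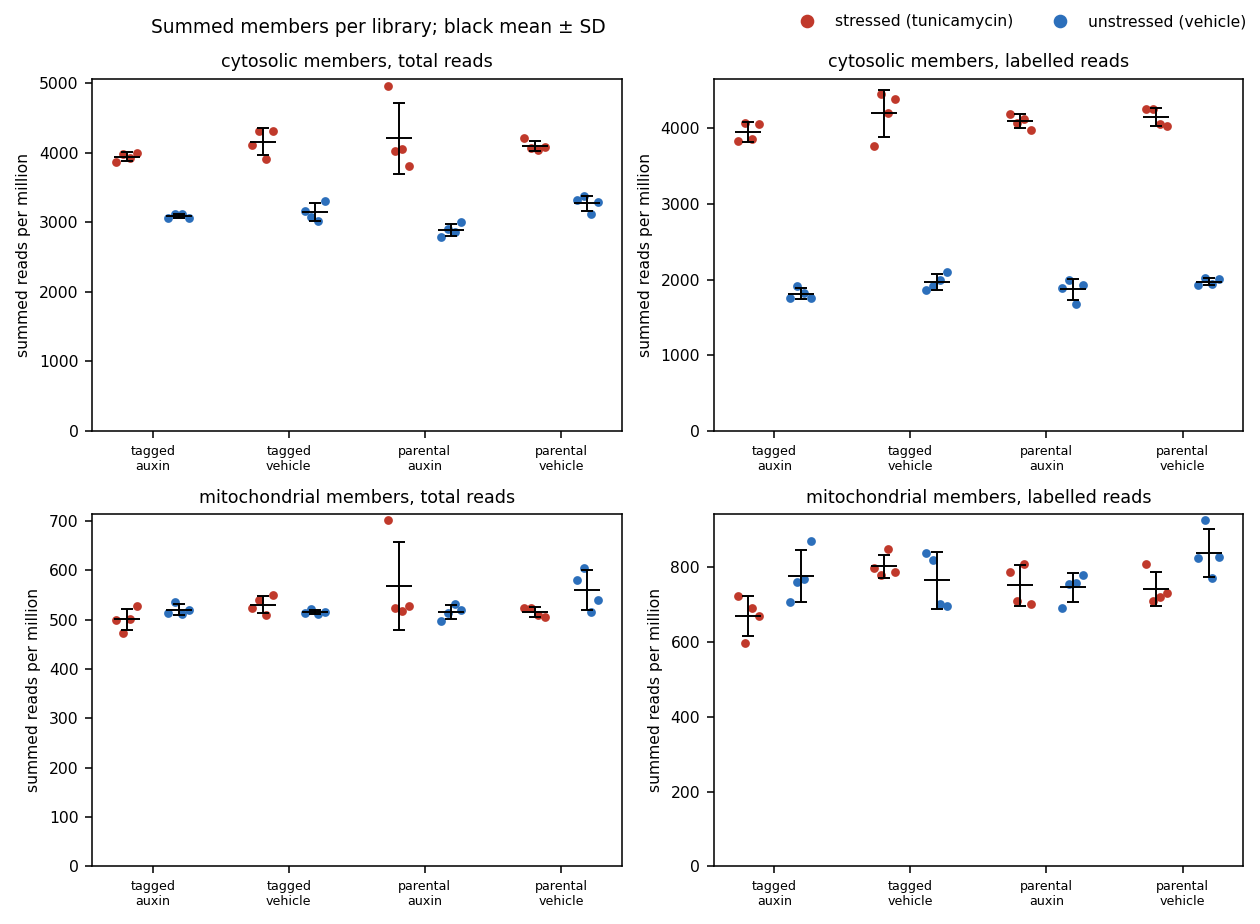
Summed levels (CPM) of the 19 cytosolic and the 16 mitochondrial synthetase genes in each library, in total reads and in labelled reads, stressed wells in red to the left of unstressed wells in blue; bars are mean ± SD over 4 wells. Cytosolic sums separate stressed from unstressed wells in both readings, and mitochondrial sums overlap.

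The response was present in each line and auxin state. Cytosolic genes called higher in total reads numbered 5 in tagged cells with auxin, 6 in tagged cells, 7 in parental cells with auxin and 10 in parental cells, beside 3.02%, 2.93%, 7.26% and 7.64% of all genes. In labelled reads they numbered 11 in tagged cells with auxin (6.95% of genes), 11 in tagged cells (6.92%), 9 in parental cells with auxin (7.91%) and 12 in parental cells (10.1%). In the share they numbered 11 in tagged cells with auxin (5.06%), 10 in tagged cells (5.06%), 8 in parental cells with auxin (5.41%) and 11 in parental cells (4.82%). The genes called in all 4 states in total reads were AARS1, CARS1, GARS1, WARS1 and YARS1; EPRS1, NARS1 and SARS1 joined them in labelled reads. Without the smallest library the count in total reads was 9 in tagged cells with auxin, 9 in tagged cells, 9 in parental cells with auxin and 11 in parental cells. In parental cells with vehicle 1 cytosolic gene was then lower in total reads, and of the mitochondrial genes 1 was higher and 2 were lower. In labelled reads the count was then 12 in tagged cells and 10 in parental cells with auxin, and in the share 12 in parental cells. The count in total reads was 6 in parental cells without unstressed vehicle replicate 1 or stressed vehicle replicate 2. For fits with a library left out the shares of all genes are not given here, so these counts cannot be set against them. In parental cells with vehicle the mitochondrial RARS2 was lower in total reads (−0.58 ± 0.20, adjusted p = 0.0484, with 5.26% of genes lower) and CARS2 in labelled reads (−0.80 ± 0.25, adjusted p = 0.0202, with 7.02% of genes lower). RARS2 was counted on a region of 35 bases with a median of 66 reads. The number of mitochondrial genes called there in total reads ran from 0 to 3 and changed in 23 of 32 fits that left out a library.

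The stress effect in tagged cells minus that in parental cells was called for 0 of the 35 genes and for 0% of all genes in each reading, with edgeR's unadjusted p below 0.05 for 5 members in total reads, 3 in labelled reads and 1 in the share. For WARS1 that difference was 0.06 ± 0.34 in labelled reads. The stress effect in tagged cells with auxin minus that in tagged cells with vehicle was also called for 0 members and 0% of genes in each reading, with unadjusted p below 0.05 for 0 members in total reads, 3 in labelled reads and 3 in the share. The auxin effect in tagged minus parental cells was called for 0 members in unstressed cells (0.0179% of genes in total reads) and in stressed cells (0%), with unadjusted p below 0.05 for 5 and 9 members in total reads. In labelled reads both gave 0 members and 0% of genes, with 4 and 5 members at an unadjusted p below 0.05. Tagged against parental cells, averaged, gave 0 members in total reads (3.35% of genes), in labelled reads (0.847%) and in the share (0.156%), with 6, 0 and 1 at an unadjusted p below 0.05. DESeq2 called 1 member in total reads in that last comparison, and 0 in the other comparisons of this paragraph in total and labelled reads.

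Auxin alone gave calls in unstressed cells. In unstressed parental cells, which carry no degron, 9 members were called in total reads with auxin, beside 7.16% of all genes. In labelled reads and in the share 0 were called, beside 0.601% and 0.212% of genes, with 11 and 3 at an unadjusted p below 0.05. IARS2 was higher, at 70.0, 59, 78.2 and 51 CPM with auxin, against 24.5, 18.1, 45.2 and 30.7 CPM with vehicle (1.11 ± 0.29, adjusted p = 0.0212). RARS2 (−0.92), VARS2 (−0.75), CARS2 (−0.66), FARSB (−0.43) and RARS1 (−0.41) were among the 8 that were lower. These 6 were among 12 members whose wells with auxin and with vehicle did not overlap, 2 above and 10 below, beside 18.1% of all genes not overlapping. The number of calls ran from 0 to 18 when single libraries were left out, and was 13 by DESeq2. It was 10 with T positions per read as a covariate and 0 when the smallest library was left out as well. IARS2 was not among those 10. Of them TARS2 was higher, and FARSB, KARS1, QARS1, RARS1, VARS1, YARS1, CARS2, RARS2 and VARS2 were lower. The shares of all genes called in these other fits are not given here. In unstressed tagged cells, auxin gave EPRS1 higher in total reads, 72.9, 124, 107 and 83.1 CPM with auxin and 51.2, 57.5, 57.3 and 46 CPM with vehicle (0.87 ± 0.21, adjusted p = 0.0481; 0.68% of genes called), and QARS1 lower in labelled reads (−1.09 ± 0.23, adjusted p = 0.0182; 0.223% of genes called). EPRS1 and QARS1 had the highest and the lowest correlation with T positions per read of the 35 genes, and the part of that property in these calls was not tested beyond the fit with the covariate. In stressed cells auxin gave 0 members called in either line, beside 0.0179% of genes in total reads in each line, and 0.0111% in parental and 0% in tagged cells in labelled reads. Unadjusted p was below 0.05 for 5 members in parental and 8 in tagged cells, in total as in labelled reads, and DESeq2 called 1 in parental and 0 in tagged cells in total reads.

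Genes that work beside the synthetases were read in the same fits. All 12 genes of amino acid response and supply were higher in total and in labelled reads, beside 11.1% and 16.9% of all genes, with medians of 1.39 and 2.84. DDIT3, the transcription factor CHOP, changed by 5.22 ± 0.10, SESN2, a leucine-sensing regulator of mTORC1, by 3.19 ± 0.08, CHAC1, a glutathione-degrading enzyme, by 5.35 ± 0.14 and TRIB3, a pseudokinase that restrains ATF4, by 2.69 ± 0.10 in total reads. Their labelled shares split, with 7 higher and 3 lower, beside 13.5% and 14.7% of all genes. The 3 that were lower, picked out after their values were seen, were ATF4 (−0.64), the transporter subunit SLC3A2 (−0.57) and DDIT3 (−0.46). In total reads 0 of 5 cytosolic elongation factors, 0 of 9 mitochondrial translation factors and 0 of 4 genes of mitochondrial tRNA amidation and formylation were called, beside 21.9% of all genes, with unadjusted p below 0.05 for 1, 2 and 0. Of 7 genes of tRNA maturation and export, 1 was called, XPOT, the tRNA export receptor (0.52 ± 0.19, adjusted p = 0.0457). Labelled reads, in which 34.6% of all genes were called, gave 2 calls of 5 among the elongation factors, EEF2 higher (0.16 ± 0.06, adjusted p = 0.0277) and EEF1A1 lower (−0.33 ± 0.14, adjusted p = 0.0488). Among 8 mitochondrial translation factors tested there were also 2: TUFM, the mitochondrial elongation factor Tu, was lower (−0.43 ± 0.12, adjusted p = 0.00242) and GFM2, a mitochondrial ribosome recycling factor, was higher (0.64 ± 0.20, adjusted p = 0.00719). Of the 7 genes of maturation and export XPOT was higher (0.93 ± 0.21, adjusted p = 0.00024) and PUS1, a pseudouridine synthase, lower (−0.30 ± 0.12, adjusted p = 0.0405), and 0 of 3 amidation and formylation genes tested were called, with 2 at an unadjusted p below 0.05.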

How the data were processed

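The deposited tables hold whole-number counts per transcript, 1 table per library, in the layout of Slamdunk's count output per the file headers: all reads, reads with T-to-C conversions, covered T positions and conversions. The submitters' processing notes name hg38; aligner version, conversion threshold and strand of counting are not given in the sources used here. Of 40767 curated mRNA identifiers 40002 matched a RefSeq symbol (GRCh38.p14); unmatched rows, 36.9% to 43.5% of a library's counts, were left out. The transcript with the most reads stood for its gene. Genes with the counts of another gene in every library were dropped, 72 of them with a mean of 1 or more reads. After this 14424 genes with a read remained.

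Counts were tested with edgeR 4.0.16 in R 4.3.3 (limma 3.58.1 and DESeq2 1.42.0 for alternatives): TMM scaling, filterByExpr, 1 coefficient per group over all 32 libraries, robust quasi-likelihood F-tests, and Benjamini-Hochberg adjustment over all genes of a comparison, threshold 0.05. Labelled reads had their own TMM factors. For the share, labelled and other reads entered as paired columns with a term per library, so its log2 changes are of labelled to other reads. CPM values use TMM-scaled totals. Levels are 3′-end counts and were compared within genes only. On simulated counts with a fixed spread, every one of 200 genes changed by a fold of 0.5 or 2 was recovered in total reads, and 96% to 99% in the other readings. Smaller changes and an outlying library were not simulated, so this does not show how many smaller changes would be found. Counts of replicates differed beyond counting noise in each of 48 pairs (chi-square over degrees of freedom, 2.07 to 65.6). Without molecular identifiers a read need not be a separate molecule, and intervals cover counting error only.

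The members and lists were chosen with earlier results of these data known. Genes with per-library values are the 6 cytosolic and 4 mitochondrial members with the smallest p for stress in total reads and 3 more by the share; called members of other comparisons are named, and up to 4 genes per list. Alternatives covered normalisation, filtering, samples fitted, a replicate term, T positions per read, scaling of labelled reads and leaving out each library; the fit with T positions and without the smallest library was added after the data were seen.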

Additional observations from a re-analysis of the deposited data

Results flagged for a closer look

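In 208 sets of 4 wells examined, 15 held a value set apart from the other 3 by most of the set's range; chance gives this in about 1 set in 20. Of the 15, 5 came from the smallest library, replicate 1 of stressed parental cells with auxin: CARS1 at 633.5 CPM (others 248.2 to 295.2), GARS1 at 533.0 CPM (311.8 to 316.8), SARS1 at 330.8 CPM (135.9 to 154.6), MARS1 at 54.7 CPM (240.2 to 255.0) and a TARS1 labelled share of 3.57% (13.1% to 15.0%). The share was 1 of 28 reads, with a 95% Wilson interval of 0.633% to 17.7% that takes in the other values. MARS1 had 43 reads there.

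Another 4 came from replicate 2 of stressed parental cells with vehicle: TARS1 at 294.5 CPM (147.7 to 172.2), IARS1 at 139.1 CPM (59.7 to 70.2), MARS2 at 9.65 CPM (6.66 to 7.04) and a GARS1 labelled share of 17.2% (14.8% to 15.0%; Wilson interval 15.5% to 19.0%).

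The remaining 6 were spread over the groups. AARS1 was at 167.8 CPM in unstressed tagged cells with auxin, replicate 1 (others 155.2 to 157.1). EARS2 was at 52.0 CPM in replicate 2 of that group (39.1 to 40.9). SARS1 was at 102.5 CPM in unstressed parental cells with vehicle, replicate 3 (117.4 to 120.5). The labelled share of WARS1 was 11.8% in stressed tagged cells with auxin, replicate 1 (16.5% to 17.1%; Wilson interval 9.40% to 14.7%). That of WARS2 was 32.3% in unstressed tagged cells with vehicle, replicate 1 (23.1% to 23.5%), from 31 reads with an interval of 18.6% to 49.9%. That of TARS2 was 15.7% in unstressed parental cells with vehicle, replicate 1 (26.5% to 27.1%), from 51 reads with an interval of 8.17% to 28.0%.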

How the results depend on the processing

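Direction held for every member called in the main fits: over 171 calls and 6764 alternative values, 6303 stayed past the threshold, 461 did not and 0 changed sign. The cause of the changes listed here was not tested, except where fewer samples or genes entered by construction. Apart from the totals for stress stated below, numbers of all genes called under an alternative are not given beside the members. Counts of cytosolic genes higher under stress, averaged over the states, stayed within 1.5 times in all 3 readings under every alternative run.

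Scaling mattered for labelled reads. On raw totals the summed cytosolic labelled change was 0.933 in place of 1.105, and the mitochondrial one −0.247 in place of −0.075. Scaling labelled reads by the factors of total reads gave 845 genes higher and 3859 lower (median −0.281), against 1521 and 1584 in the main fit (median −0.032), with 3 mitochondrial genes called in parental cells (1 in the main fit) and 1 in tagged cells with auxin (0). Without centring, the share was higher for 475 genes and lower for 4414 (median −0.359), against 1213 and 1316 (median −0.057). NARS1 was then not called in the share (0.07). Mitochondrial shares called were then 6 on average (3), 3 in parental cells (0), 1 in parental cells with auxin (0) and 1 in tagged cells (0), cytosolic shares higher were 4 in parental cells with auxin (8) and 7 in tagged cells with auxin (11), and auxin gave 1 share call in unstressed tagged cells (0). Conversions per covered T position gave 0 mitochondrial share calls on average, and 4, 6 and 6 cytosolic ones in parental cells with auxin, tagged cells and tagged cells with auxin (8, 10 and 11). Limma on log2 ratios gave 5 in parental cells with auxin.

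For total reads, T positions per read as a covariate raised all calls for stress from 2448 to 3716 genes, and to 3914 without the smallest library. Cytosolic genes higher became 11 in tagged cells (6) and 10 in tagged cells with auxin (5), or 11 and 11 without the smallest library. RARS2 was then not called (0 mitochondrial genes in parental cells), the CARS2 labelled call of parental cells was lost (0), auxin in unstressed tagged cells gave 4 members (1) and the line comparison 1 (0). With the smallest library also left out, auxin gave 0 members in unstressed parental cells (9) and 0 in unstressed tagged cells in total and labelled reads, the tag-dependent auxin effect gave 1 in unstressed cells, the line comparison 4, and stress in tagged cells with auxin 1 mitochondrial labelled call. Fitting only the libraries compared gave 3 cytosolic genes in parental cells with auxin (7), 11 in tagged cells and 11 in tagged cells with auxin. For auxin it gave 16 members in unstressed parental cells in total reads and 4 in labelled reads (0), 9 and 2 in unstressed tagged cells (1 and 1), and 5 and 1 in stressed tagged cells (0 and 0). DESeq2 gave 2 mitochondrial genes in parental cells (1) and 1 in parental cells with auxin (0), 1 member for auxin in stressed parental cells, 5 in unstressed tagged cells and 1 for the line. Without a filter, 0 mitochondrial genes were called in parental cells and 0 members for auxin in unstressed tagged cells in total reads. In labelled reads there was then 1 mitochondrial gene on average (4), and for auxin 3 members in unstressed parental, 2 in unstressed tagged and 1 in stressed tagged cells, with 1 each for the tag-dependent effect under stress and for stress in tagged minus parental cells.

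Correlations of same-numbered deviations in total reads ran from −0.366 to 0.331, and were not computed for labelled reads. The labelled percentage did follow the replicate number. Replicates 1 and 3 lay above 2 and 4 in each unstressed group, and below them in each stressed group. In parental cells with vehicle, replicates 1 to 4 had 13.41%, 12.79%, 13.23% and 12.25% unstressed, and 11.57%, 12.69%, 10.96% and 12.1% stressed. What lies behind this order was not tested. As a block, replicate numbers gave 0 mitochondrial genes in parental cells and 2 members for auxin in unstressed tagged cells. The block also gave 2 mitochondrial labelled calls on average and 5 cytosolic shares in parental cells with auxin. Block and T covariate together gave 10 and 10 cytosolic genes in tagged cells without and with auxin, 4 members for auxin in unstressed tagged cells and 3 for the line.

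Leaving out single libraries (for the share, in the stress comparisons only) gave these ranges. Total reads: mitochondrial calls 0 to 1 on average, 0 to 3 in parental cells and 0 to 2 in parental cells with auxin; cytosolic genes 6 to 11 in parental cells and 5 to 9 in tagged cells with auxin; auxin 0 to 18 members in unstressed parental, 0 to 3 in stressed parental, 0 to 9 in unstressed tagged and 0 to 1 in stressed tagged cells; tag-dependent effect under stress 0 to 3, reached without stressed parental cells with auxin replicate 4; line 0 to 2. Labelled reads: mitochondrial calls 1 to 4 on average and 0 to 1 in parental cells; auxin 0 to 3 members in unstressed parental and 0 to 1 in unstressed tagged cells. Mitochondrial shares called ran from 1 to 3 on average. The 14 mitochondrial genes tested in labelled reads had medians of 7 to 35 labelled reads per library, and the 4 called 19 to 30, which limits what could be detected.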
